A study of Homo sapiens with 6 samples.

Results

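The 10 genes described here carry the cell's route from cystine to glutathione and on to the reduction of lipid peroxides: SLC7A11 and SLC3A2 (cystine uptake), GCLC, GCLM and GSS (glutathione synthesis), GSR (recycling), GPX4 and GPX1 (peroxide reduction), and CBS and CTH (transsulfuration). They were chosen by symbol, through the Ensembl IDs of the deposited table, and all 10 were found among its 62710 IDs. RNA was sequenced from HT1080, an established human fibrosarcoma line grown in high-glucose DMEM with fetal bovine serum, in 3 untreated libraries and 3 libraries of cells given 20 ng/mL human IFNβ for 24 h. The labels name no deleted or silenced gene, and the treatment is the only difference between the groups that they state. They give no time for the untreated libraries. The study describes its cell culture experiments in general as independent biological replicates, and the labels do not say whether the 3 libraries of a group came from separate cultures, so the p-values measure the spread between these libraries. The values are FPKM, which the authors computed by relating fragments to gene length and to library size, and group values are given as mean ± S.D. of 3 libraries.

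Glutathione is a small thiol peptide made of glutamate, cysteine and glycine, and cysteine is usually the component in shortest supply. Most cultured cells import cystine, the oxidised form of cysteine, in exchange for glutamate through system xc-, in which SLC7A11 (xCT) is the transporting chain and SLC3A2 (4F2hc) the partner that brings it to the cell surface. Glutamate-cysteine ligase and glutathione synthetase then build the peptide, and the selenoprotein GPX4 spends it to reduce lipid hydroperoxides in membranes, which is the step that keeps ferroptosis, an iron-dependent death by lipid peroxidation, in check. HT1080 is a line in which ferroptosis is commonly studied. The study asked how IFNβ acts on ferroptosis, and the question put to these 10 genes is whether their mRNA differed between treated and untreated cells.

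The FPKM values had been divided by between 22848104 and 32915500 fragments per library, as worked out from their steps. The response to IFNβ was present in every treated library: all 6 interferon-stimulated genes looked up, with IFIT1, MX1, ISG15, OAS1 and IFI6 among them, rose, IFIT1 from 0.916 ± 0.0380 to 412.7 ± 3.30 FPKM (n = 3, log2 fold change 8.67, adjusted p = 5.2e-10 by limma). The summed FPKM of 8 mesenchymal markers, with VIM, SPARC and FN1 among them, lay between 1057 and 1127 in untreated and between 1222 and 1249 in treated libraries, with 4 of the 8 higher and 2 lower, and the part of this in the results on the 10 genes was not tested. No marker of leukocytes (4 genes) exceeded 0.0922 FPKM, no endothelial marker (3 genes) exceeded 0.327 FPKM, and no epithelial marker (5 genes) exceeded 0.626 FPKM in any library. The summed epithelial markers lay between 0.243 and 0.464 FPKM in untreated and between 0.538 and 0.654 FPKM in treated libraries, and CLDN4, the one tested, was higher (log2 fold change 0.73, adjusted p = 0.047 by limma).

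After 24 h of IFNβ the axis did not move as a block. CTH, GCLC and SLC3A2 rose, GPX4, GSS, GSR and GCLM fell, and SLC7A11, GPX1 and CBS did not pass the test. All of the changes were small: the mean FPKM after IFNβ was between 0.841 times (GPX4) and 1.61 times (CTH) that of untreated cells. By limma on log2(FPKM + 0.1), 7 of the 10 genes had an adjusted p-value under 0.05, which held for 32.7% of the 20716 genes tested and for 49.4% of the 11996 genes that averaged 1 FPKM or more over the 6 libraries, a level that 9 of the 10 reached. None of the 10 changed 2-fold or more with an adjusted p-value under 0.05, against 4.22% of all genes tested. Their median log2 fold change was -0.051. That of all genes tested was 0.00020, and that of genes averaging 1 FPKM or more was -0.034. The treated libraries lay entirely above or below the untreated ones for 8 of the 10 genes, as they did for 46.6% of all genes tested and for 62.7% of those averaging 1 FPKM or more.

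**Figure D1:**
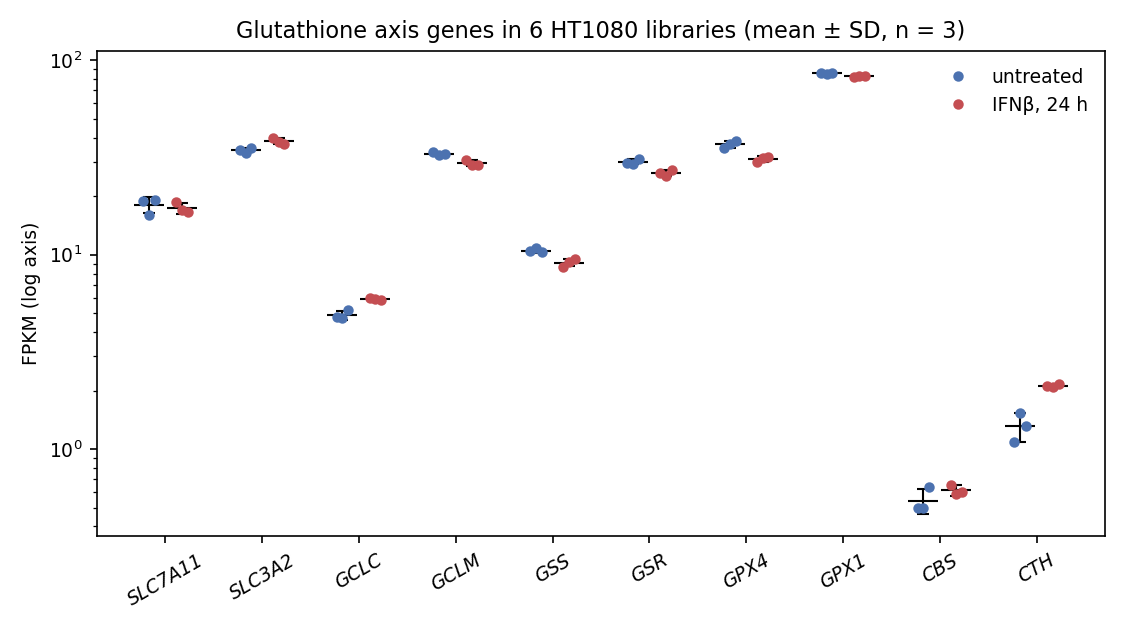
FPKM (log axis) of the 10 glutathione axis genes in 3 untreated (blue) and 3 IFNβ-treated (red) HT1080 libraries, with the mean (bar) and S.D. (whisker). Across genes, untreated means range from 0.543 (CBS) to 85.6 FPKM (GPX1), a far wider span than between the groups of any gene. GPX4, SLC3A2, GCLM and GSR lie close together. Only SLC7A11 and CBS have groups that overlap.

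GPX1 was the most abundant of the 10 mRNAs per length in untreated cells (85.6 FPKM), followed by GPX4 (37.0), SLC3A2 (34.5), GCLM (33.1), GSR (30.1), SLC7A11 (18.1), GSS (10.5), GCLC (4.88), CTH (1.32) and CBS (0.543). The only neighbours in this order whose libraries overlapped were SLC3A2 and GCLM. After IFNβ the order was the same except that SLC3A2 (38.4 FPKM) stood above GPX4 (31.1 FPKM). GPX4 and GCLM (29.6 FPKM) were then the only overlapping neighbours. The order depends on the length each gene was divided by. For SLC3A2 and GPX4 the values imply 6392 and 1840 bases, against 5178 and 2019 in GENCODE release 29. Which of these 2 genes stood higher in untreated cells is therefore uncertain. Among all genes tested, GPX1 ranked 384 by mean FPKM and CBS ranked 13685. CTH and CBS had as few as 60 and 77 fragments in a library, whereas the other 8 genes had at least 937.

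SLC7A11 (ENSG00000151012, chromosome 4 from 138164097 to 138242349, minus strand) is the chain that binds and exchanges cystine. It was listed at 19.0, 16.1 and 19.2 FPKM in the untreated libraries and at 18.7, 17.0 and 16.5 FPKM after IFNβ. The groups overlapped, and the lowest value of all was in an untreated library. The log2 fold change was -0.054 (S.E. 0.0805, adjusted p = 0.67 by limma), with a 95% interval from -0.25 to 0.14, so a change of either sign within those bounds could not be told from none. Exons of the antisense gene SLC7A11-AS1 share 865 bases with it in GENCODE release 29, and whether counting used strand is not given, but SLC7A11-AS1 had at most 57 fragments in a library against at least 4089 for SLC7A11.

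SLC3A2 (ENSG00000168003, chromosome 11 from 62856102 to 62888875, plus strand) is the heavy chain that xCT shares with several other amino acid transporters. Its FPKM was 34.8, 33.4 and 35.2 in untreated cells and 40.0, 38.1 and 37.2 after IFNβ. Every treated library was above every untreated one. The mean was 11.4% higher, a log2 fold change of 0.16 (S.E. 0.0335, adjusted p = 0.014 by limma). This call was lost with eBayes without an intensity trend (adjusted p = 0.058).

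GCLC (ENSG00000001084, chromosome 6 from 53497341 to 53616970, minus strand) encodes the catalytic subunit of glutamate-cysteine ligase, which joins glutamate to cysteine in the rate-limiting step of the synthesis. It was listed at 4.76, 4.70 and 5.16 FPKM in untreated cells and at 6.01, 5.89 and 5.87 FPKM after IFNβ, with no overlap. The mean rose by 21.5%, with a log2 fold change of 0.28 (S.E. 0.0446, adjusted p = 0.0042 by limma). GENCODE release 29 places 529 bases of a non-coding gene on the same strand within its 8646 exon bases. How reads in the shared bases were counted is not given, and their part in the rise was not tested.

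GCLM (ENSG00000023909, chromosome 1 from 93885205 to 93909456, minus strand) encodes the modifier subunit, which makes the ligase more efficient and less sensitive to inhibition by glutathione. It went the other way, from 33.6, 32.7 and 33.1 FPKM to 30.8, 28.9 and 29.03 FPKM. The treated libraries were all lower, and the untreated ones were close together. The mean fell by 10.7%, with a log2 fold change of -0.16 (S.E. 0.0300, adjusted p = 0.0073 by limma).

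GSS (ENSG00000100983, chromosome 20 from 34928433 to 34956027, minus strand), the synthetase that adds glycine, had 10.4, 10.8 and 10.3 FPKM in untreated cells and 8.68, 9.19 and 9.46 FPKM after IFNβ. All treated libraries were below all untreated ones, and the mean fell by 13.1% (log2 fold change -0.20, S.E. 0.0395, adjusted p = 0.0095 by limma). GSR (ENSG00000104687), the reductase that returns oxidised glutathione to its thiol form at the expense of NADPH, had 29.8, 29.5 and 31.1 FPKM against 26.4, 25.4 and 27.2 FPKM. Again the groups did not overlap, and the mean fell by 12.4% (log2 fold change -0.19, S.E. 0.0335, adjusted p = 0.0060 by limma).

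GPX4 (ENSG00000167468, chromosome 19 from 1103926 to 1106791, plus strand) had the largest fall of the 10. It was listed at 35.4, 37.0 and 38.6 FPKM in untreated cells and at 29.99, 31.6 and 31.8 FPKM after IFNβ. The highest treated library was below the lowest untreated one. The mean fell by 15.9%, a log2 fold change of -0.25 (S.E. 0.0388, adjusted p = 0.0037 by limma), with a 95% interval from -0.34 to -0.15.

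GPX1 (ENSG00000233276, chromosome 3 from 49357171 to 49358600, minus strand), the cytosolic selenoprotein that reduces hydrogen peroxide, had 85.9, 84.9 and 86.1 FPKM in untreated cells and 82.0, 83.4 and 82.9 FPKM after IFNβ. The groups did not overlap, but the mean changed by only -3.33% and the test was not passed (log2 fold change -0.049, S.E. 0.0158, adjusted p = 0.059 by limma). When genes averaging below 1 FPKM were left out of the test, the same log2 fold change had an adjusted p-value of 0.046. GENCODE release 29 lists GPX1 as a polymorphic pseudogene, and a processed copy of it, GPX1P1, had 133 to 197 fragments per library against at least 2809 for GPX1. How reads that match both were counted is not given, so the level of GPX1 is uncertain to that extent.

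CTH (ENSG00000116761, chromosome 1 from 70411218 to 70439851, plus strand) encodes cystathionine gamma-lyase, which releases cysteine at the end of transsulfuration, the route from methionine that can feed glutathione without imported cystine. It was listed at 1.09, 1.54 and 1.32 FPKM in untreated cells, from 60, 110 and 105 fragments, and at 2.10, 2.09 and 2.15 FPKM after IFNβ, from 156, 126 and 150 fragments. The untreated libraries varied far more than the treated ones, and all of them were lower. The mean was 60.7% higher, the largest change among the 10 genes, with a log2 fold change of 0.66 (S.E. 0.122, adjusted p = 0.0074 by limma). Since the pseudocount is not small beside these levels, this value understates the change: it was 0.69 with a pseudocount of 0.01 and 0.43 with a pseudocount of 1.

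CBS (ENSG00000160200, chromosome 21 from 43053191 to 43076943, minus strand), which makes the cystathionine that CTH cleaves, had 0.497, 0.497 and 0.636 FPKM in untreated cells and 0.656, 0.584 and 0.602 FPKM after IFNβ. The groups overlapped, and the log2 fold change of 0.16 did not pass (S.E. 0.142, adjusted p = 0.46 by limma, 95% interval from -0.19 to 0.50). GRCh38 holds a copy of this gene, CBSL (ENSG00000274276), on the same chromosome from 6444869 to 6468040. CBSL was listed at 1.00, 2.39 and 1.16 FPKM in untreated cells and at 1.33, 1.44 and 4.13 FPKM after IFNβ. One library of each group stood far above the other two, and CBSL did not pass the test either (log2 fold change 0.48, S.E. 0.500, adjusted p = 0.53 by limma). Reads from the 2 copies cannot be told apart where their sequences agree, so the level of CBS is uncertain.

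**Figure D2:**
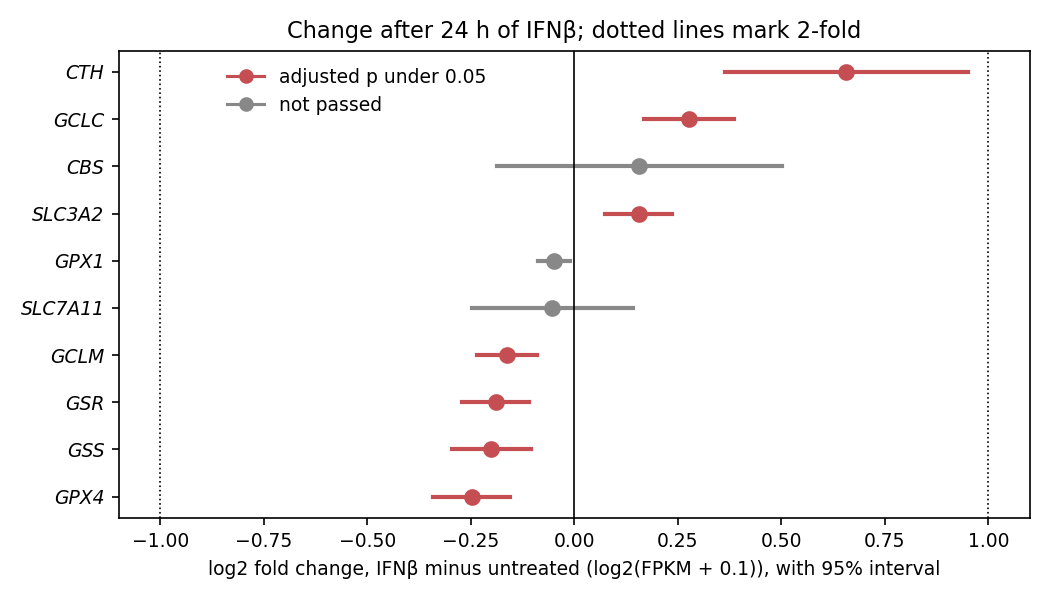
Log2 fold change of each of the 10 genes after IFNβ (x axis, log2(FPKM + 0.1) scale) with its 95% interval from limma, red where the adjusted p-value was under 0.05 and grey where it was not. The 4 lower genes sit between -0.25 and -0.16, CTH is highest at 0.66, and no interval reaches the dotted lines at 2-fold.

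FPKM are scaled by gene length, and 2 genes of related function were set side by side within a library. The size of such a ratio depends on the gene lengths used, but its fold change between groups does not. For SLC7A11 over SLC3A2, the chains of system xc-, the ratio of FPKM was 0.546, 0.481 and 0.545 in untreated cells and 0.468, 0.446 and 0.444 after IFNβ. For GCLM over GCLC, the subunits of the ligase, it was 7.05, 6.95 and 6.41 against 5.14, 4.90 and 4.95. The treated libraries were the lower ones in both cases, with differences in mean log2 ratio of -0.21 and -0.45. GPX4 over GPX1 was 0.413, 0.436 and 0.449 against 0.366, 0.379 and 0.384, a difference of -0.20. CTH over CBS was 2.19, 3.09 and 2.08 against 3.20, 3.58 and 3.57, a difference of 0.51. None of these 4 ratios overlapped between groups, but they are made from the values of the single genes given above and are not separate results. Taken singly, 8 of the 10 genes did not overlap either, nor did 62.7% of all genes averaging 1 FPKM or more. The share over other gene pairs was not computed. With CBS and its copy CBSL summed, however, CTH over the sum was 0.727, 0.532 and 0.737 against 1.06, 1.03 and 0.454, so that the groups overlapped (difference 0.27, exact permutation p = 0.60). An exact permutation test (two-sided, n = 3 each) gave p = 0.10 for every ratio, 0.10 also after Benjamini-Hochberg adjustment over the 4, and 0.10 is the smallest p that 3 libraries against 3 allow, so this test cannot pass 0.05.

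**Figure D3:**
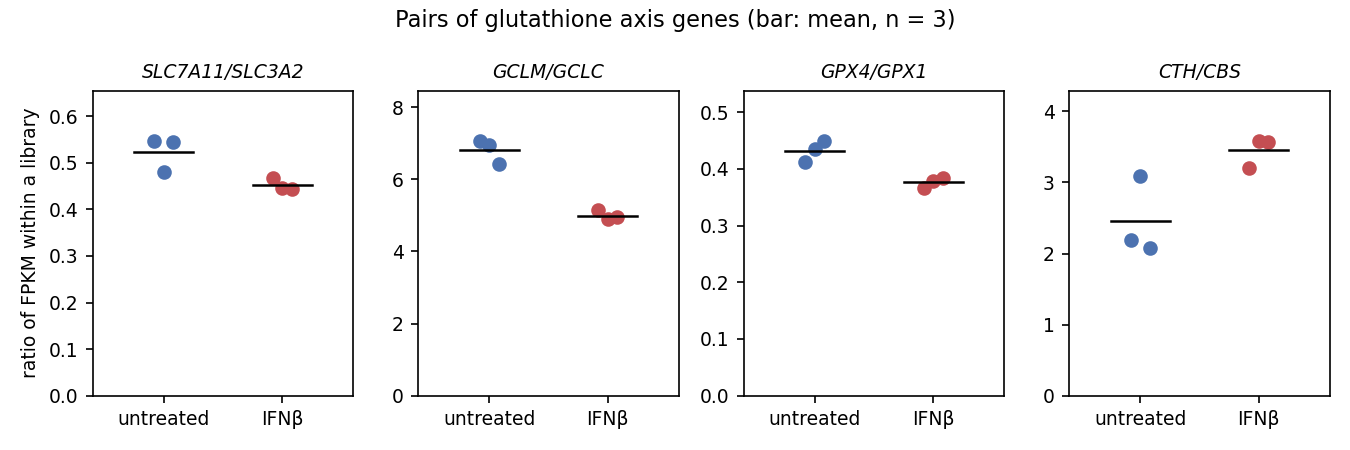
Ratio of FPKM of 2 genes within each library (y axis from 0), for 3 untreated (blue) and 3 IFNβ-treated (red) libraries, with the mean as a bar. GCLM over GCLC falls from 6.80 to 5.00 on average, and CTH over CBS goes from 2.45 to 3.45 with one untreated library at 3.09, close to the lowest treated one at 3.20.

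The starts of the genes were read for short sequences recognised by factors known to act on this axis or to follow interferon. RefSeq windows of 300 bases on GRCh38.p14, reaching 250 bases upstream of a transcript start, were at hand for 7 of the 9 genes searched. These were 13 windows, since SLC3A2, GPX4 and CBS have 3 each. SLC7A11 and GSS had no window, and GSR was not searched. Both strands were searched for the core of the antioxidant response element (TGACNNNGC), to which NRF2 binds, the core of the ATF4 element (TGATGNAA), the core of the interferon-stimulated response element (a pair of GAAA repeats with 2 bases between them) and the GAS element of interferon signalling (TTCNNNGAA). Of all 35116 windows, 13.3%, 3.62%, 3.57% and 7.66% hold them. GCLM and SLC3A2 are shown because each holds an antioxidant response element core and a GAS match close to the start, although one mRNA fell and the other rose. CTH and GPX4 are shown as the largest rise and the largest fall. Capitals mark the matches, and each stretch of 100 bases is written 5′ to 3′ on the strand of the gene.
GCLM, chr1:93909442-93909541, minus strand: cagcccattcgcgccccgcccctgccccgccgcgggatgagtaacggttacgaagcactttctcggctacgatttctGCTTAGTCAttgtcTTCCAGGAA
SLC3A2, chr11:62881571-62881670, plus strand: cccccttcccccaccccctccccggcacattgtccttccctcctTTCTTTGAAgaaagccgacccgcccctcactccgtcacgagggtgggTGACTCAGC
CTH, chr1:70411118-70411217, plus strand: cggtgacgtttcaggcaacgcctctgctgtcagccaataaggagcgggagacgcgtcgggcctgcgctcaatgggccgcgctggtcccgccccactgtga
GPX4, chr19:1103826-1103925, plus strand: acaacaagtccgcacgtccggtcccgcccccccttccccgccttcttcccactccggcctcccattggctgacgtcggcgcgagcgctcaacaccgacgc

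Positions are counted from the RefSeq start of each window, which can differ from the GENCODE start. In GCLM the antioxidant response element core lies on the opposite strand from 34 to 26 bases upstream of the start. The GAS match follows it from 20 to 12 bases upstream. By GENCODE release 29, GCLM starts at 93909456, so 15 bases of its stretch, with the whole GAS match, are exon. For SLC3A2 3 bases of the stretch are exon. In SLC3A2 the GAS match lies from 84 to 76 and the core from 37 to 29 bases upstream. The same SLC3A2 window holds the only match to the ATF4 core among the 13, on the opposite strand from 37 to 44 bases downstream, and another SLC3A2 window holds a further GAS match. CBS has an antioxidant response element core from 83 to 75 bases upstream. The windows of CTH, GPX4, GPX1 and GCLC held no match to the 4 sequences, and no window of the 7 genes held the interferon-stimulated response element core. A match describes the letters only and is not a site shown to be bound.

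Around the axis, 130 further genes in 10 lists were looked up, of which 107 were tested. Of these, 31 rose and 24 fell with an adjusted p-value under 0.05, beside 15.2% and 17.5% of all genes tested. The other 52 did not pass. Most of the 107 averaged 1 FPKM or more, and 49.4% of all genes at that level passed in either direction. The median log2 fold change of the 107 was 0.030, against -0.034 for all genes averaging 1 FPKM or more. The counts and medians of the single lists below stand beside these same values. LAP3, TXNIP, MFSD12 and ATF3, 4 of the 107, changed 2-fold or more with an adjusted p-value under 0.05, a share near the 4.22% of all genes tested. All 4 were higher, as were 722 of the 875 such genes over the whole table.

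**Figure D4:**
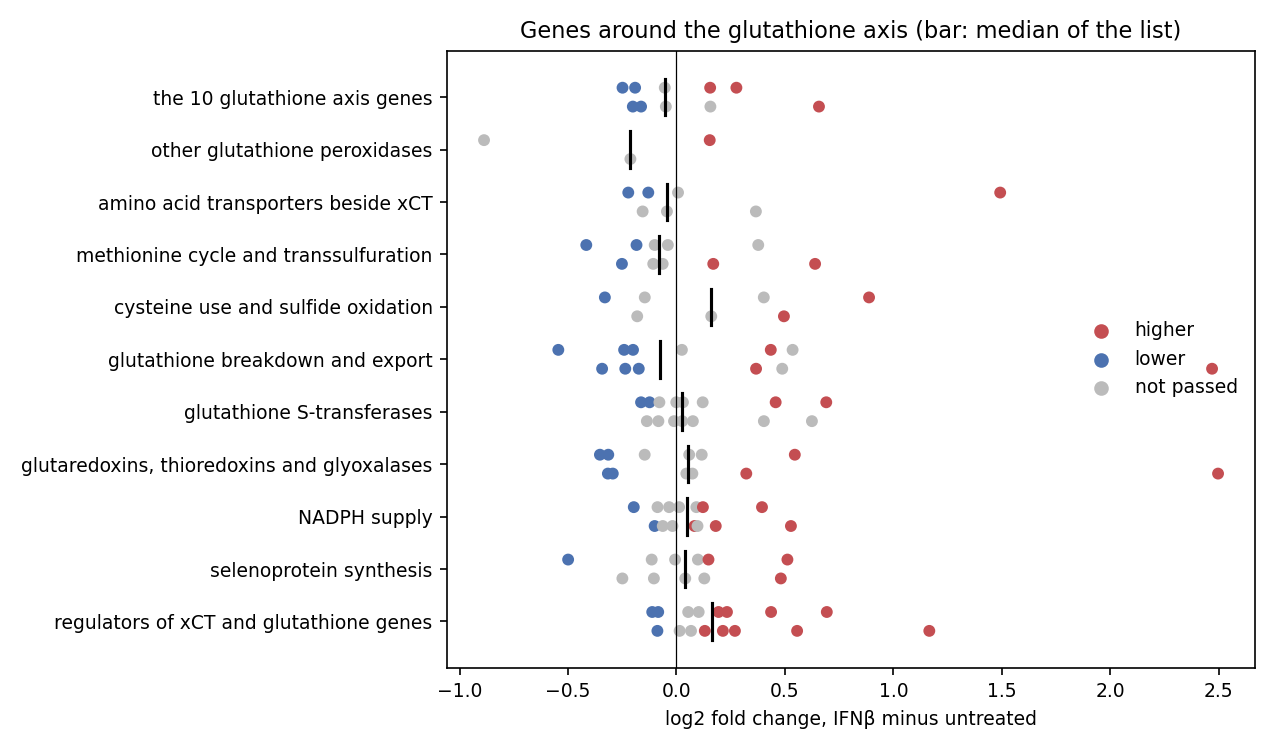
Log2 fold change after IFNβ (x axis) of the tested genes of each list, red where higher and blue where lower with an adjusted p-value under 0.05, grey where not passed, with the list's median as a black bar. Most points lie within 0.5 of 0, and the 4 points to the right of 1 are LAP3, TXNIP, MFSD12 and ATF3.

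Of 12 other amino acid and cystine transporters, 7 were tested, with 1 higher, 2 lower and a median log2 fold change of -0.044. MFSD12, which is needed to bring cysteine into lysosomes and melanosomes, was the higher one, going from 17.2 ± 0.614 to 48.6 ± 1.10 FPKM (n = 3, log2 fold change 1.49, adjusted p = 6.2e-07 by limma). SLC7A6, another light chain that pairs with SLC3A2, fell by 0.22 on the log2 scale, and SLC1A5, a glutamine carrier, fell by 0.13, a call lost with eBayes without trend (adjusted p = 0.055). SLC7A5, the light chain of the leucine transporter and at 119 FPKM the most abundant transporter of the list, had a log2 fold change of 0.0074 (adjusted p = 0.83 by limma).

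Upstream of CBS, the methionine cycle had 2 genes higher and 3 lower of 10 tested, with a median of -0.082. AHCY, which yields the homocysteine that CBS uses, fell from 58.0 ± 1.46 to 43.5 ± 1.84 FPKM (n = 3, log2 fold change -0.42, adjusted p = 0.00029 by limma). AHCYL1 (log2 fold change -0.25) and MAT2A (-0.18), which makes S-adenosylmethionine, also fell. MAT1A, the liver form of that enzyme, rose by 0.64 from a low level of 1.09 FPKM, a call lost without IFNβ library 3 (adjusted p = 0.056). Of 7 tested genes of cysteine use and sulfide oxidation, 2 were higher and 1 lower, with a median of 0.16. SQOR (log2 fold change 0.89) and TST (0.50), which take part in mitochondrial sulfide oxidation, rose. NFS1 (-0.33), the cysteine desulfurase of iron-sulfur cluster synthesis, fell. The call of SQOR was lost without IFNβ library 1 or 3, with an adjusted p-value of at most 0.053. By limma-voom on the recovered fragments, 5 of the 7 passed (3 higher, 2 lower), with CSAD and MPST added.

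Among genes of glutathione breakdown and export, 3 were higher and 6 lower of 12 tested, with a median of -0.074. LAP3, a leucine aminopeptidase, rose from 15.4 ± 0.393 to 85.7 ± 2.20 FPKM (n = 3, log2 fold change 2.47, adjusted p = 3.5e-08 by limma). CHAC1, which cleaves glutathione in the cytosol, rose from 2.98 ± 0.334 to 4.06 ± 0.330 FPKM (n = 3, log2 fold change 0.44, adjusted p = 0.016 by limma), and the gamma-glutamyltransferase family member GGT7 rose by 0.37. Without IFNβ library 1 or 2 the call of CHAC1 was lost, with an adjusted p-value of at most 0.067. The exporter ABCC4 fell by 0.54 and GGCT, which acts on gamma-glutamyl dipeptides, fell by 0.34. Of the 6 other glutathione peroxidases, 3 were tested, with a median of -0.21, and GPX8, an enzyme of the endoplasmic reticulum, rose by 0.15 (adjusted p = 0.0018 by limma). GPX2, from 5 to 26 fragments per library, had a log2 fold change of -0.89 with no overlap (adjusted p = 0.066 by limma), and passed by limma-voom, with quantile normalization and with the replicate block. The S-transferases had 2 higher and 2 lower of 15 tested, with a median of 0.027. GSTK1 rose by 0.46 and GSTO1 fell by 0.16, GSTCD fell by 0.12, and GSTT2 rose by 0.69 but has a near-identical neighbour in GSTT2B, which did not pass (0.030, adjusted p = 0.88 by limma). Of these 15 genes, 2 passed without IFNβ library 2, IFNβ library 3 or untreated library 2. The call of GSTT2 was lost with each library but untreated 3 left out, and that of GSTCD without IFNβ library 2 or 3 or untreated library 2 or 3.

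Glutaredoxins, thioredoxins and glyoxalases had 3 genes higher and 4 lower of 12 tested, with a median of 0.052. TXNIP, which binds and inhibits thioredoxin, rose from 1.21 ± 0.217 to 7.24 ± 0.511 FPKM (n = 3, log2 fold change 2.50, adjusted p = 3.9e-05 by limma). GLRX rose by 0.55 and HAGH by 0.32, whereas GLO1 (log2 fold change -0.35) and GLRX3 (-0.32) fell. The call of HAGH (adjusted p = 0.036 by limma) was lost with each library but untreated 1 left out. Of the genes that supply NADPH, on which GSR depends, 5 were higher and 2 lower of 14 tested, with a median of 0.048. IDH1 rose from 26.4 ± 1.23 to 34.6 ± 0.825 FPKM (n = 3, log2 fold change 0.39, adjusted p = 0.00051 by limma). ALDH1L2 rose by 0.53 and TKT, of the pentose phosphate pathway, fell by 0.20. In place of 7, 4 of these 14 genes passed without IFNβ library 2 and 3 with eBayes without trend.

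GPX4 and GPX1 contain selenocysteine, which needs its own synthesis and decoding factors. Of 11 of these tested, 3 were higher and 1 lower, with a median of 0.041. SEPSECS, which makes selenocysteine on its tRNA, rose from 1.37 ± 0.0824 to 2.00 ± 0.186 FPKM (n = 3, log2 fold change 0.51, adjusted p = 0.0064 by limma). SECISBP2L rose by 0.48. EEFSEC, the elongation factor that delivers selenocysteine, had a log2 fold change of 0.15 at the edge of the threshold (adjusted p = 0.049 by limma), and its call was lost under 10 of 16 other settings, each of the 6 libraries left out among them. SEPHS1 fell by 0.50, while SEPHS2, the form that makes selenophosphate, had a log2 fold change of 0.099 and did not pass (adjusted p = 0.12 by limma).

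Of 16 regulators of xCT and of the glutathione genes, all tested, 9 were higher and 3 lower, with a median log2 fold change of 0.16. All 16 averaged 1 FPKM or more, a level at which 49.4% of genes passed in either direction and the median was -0.034. ATF3, a stress-induced factor, rose from 1.15 ± 0.0850 to 2.70 ± 0.157 FPKM (n = 3, log2 fold change 1.17, adjusted p = 0.00013 by limma). BACH1, which competes with NRF2 for antioxidant response elements, rose from 10.6 ± 0.446 to 15.6 ± 0.183 FPKM (n = 3, log2 fold change 0.56, adjusted p = 8.2e-05 by limma). DDIT3 rose by 0.69, MAFG by 0.27 and NFE2L2, which encodes NRF2, by 0.21, whereas ATF4, an activator of SLC7A11, CTH and CHAC1, fell by 0.11. With eBayes without trend 9 regulators were higher and none of the 3 lower ones passed, ATF4 with an adjusted p-value of 0.066. KEAP1, the inhibitor of NRF2, had a log2 fold change of 0.054 (adjusted p = 0.17 by limma).

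Among the 11996 genes averaging 1 FPKM or more, those whose log2(FPKM + 0.1) followed GPX4 most closely over the 6 libraries were FEN1 (Pearson r = 0.999), NCK1 (0.996) and POLR3F (0.996). For SLC7A11 they were PCNX4 (0.983), YAF2 (0.979) and INSYN2B (0.977). These are descriptions over 6 points that share libraries and fall into 2 groups.

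**Figure D5:**
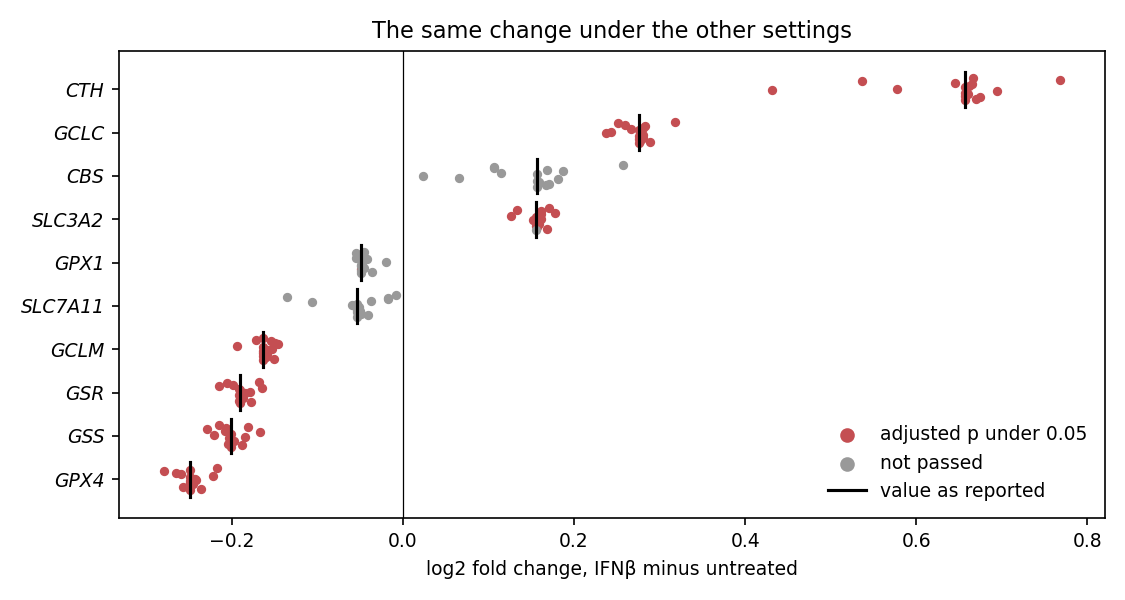
Log2 fold change of each of the 10 genes (x axis) under 16 other settings of the analysis (15 for CBS), red where the adjusted p-value was under 0.05 and grey where it was not, with the reported value as a black bar. Every setting keeps the sign of each gene, and CTH spreads most, from 0.43 to 0.77.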

How the data were processed

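RNA from 6 HT1080 libraries (3 untreated, 3 treated with 20 ng/mL IFNβ for 24 h, human IFNβ according to the labels and mouse IFNβ in the paper's sequencing methods) was sequenced as paired ends. The deposited values are FPKM per Ensembl gene and library, made by the authors. The submitters' processing notes name fastp, HISAT2, StringTie and GRCh38, and versions, annotation and strand are not given in the sources used here. Symbols came from a table of gene names (62639 IDs matched) and locations from GENCODE release 29, which lacks 4436 of the IDs and may differ from the authors' annotation. GSTT1 had no entry.

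Fragments were recovered from the steps of the FPKM, taking for each gene the lowest set of whole counts that fits its values (within 0.001 of whole, for 100% of 35303 genes above 0). They made up 99.15% to 99.18% of the fragments each library was divided by, which set the precision. The 2 groups were compared by limma 3.58.1 (R 4.3.3; lmFit, eBayes with an intensity trend, no covariate) on log2(FPKM + 0.1), keeping genes that averaged 0.1 FPKM or more, with Benjamini-Hochberg adjustment over all genes tested. Python 3.11.15 (pandas 2.3.3, scipy 1.17.1) was used for the rest. The fit was tested on simulated data.

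The 10 genes, the lists and the tests were chosen with earlier results of these data known. Named from each list were the genes changed 2-fold or more with an adjusted p-value under 0.05 and up to 4 others with the largest log2 fold change among those that passed, except for some that are not reported here. SLC7A5, SEPHS2, GSTT2B, GPX2, CSAD, MPST, CLDN4, NFE2L2, ATF4, KEAP1, CBSL, SLC7A11-AS1 and GPX1P1 were added after their values were seen. Alternatives were other pseudocounts, filters and scalings, eBayes without trend, limma-voom on the recovered fragments, the replicate number as a block, and each library left out.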

Additional observations from a re-analysis of the deposited data

How the results depend on the processing

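Of the 10 genes, 7 had an adjusted p-value under 0.05, and 6 to 8 did under the other settings. The direction of every one of the 10 genes held under all settings run, 16 for each gene and 15 for CBS, which was under the filter of a mean FPKM of at least 1. SLC3A2 lost its call with eBayes without trend (log2 fold change 0.16, adjusted p = 0.058) and GPX1 gained one with a mean FPKM of at least 1 (-0.049, adjusted p = 0.046). With an adjusted p-value under 0.01, 6 of the genes passed. Over all genes, 875 changed 2-fold or more with an adjusted p-value under 0.05, against 425 with a mean FPKM of at least 1, for which fewer genes were tested, and 304 with a pseudocount of 1, which shrinks the change of low genes. Quantile normalization put the median over all genes at -0.058 (log2) and moved the share of higher genes among those that passed from 46.5% (of 6778) to 39.4%. With the replicate number as a block, 7 of the 10 genes passed as well. The same-numbered libraries did not pair, with correlations of their deviations from the group means of 0.053, -0.018 and 0.12. With single libraries left out, the log2 fold change lay between 0.54 and 0.77 for CTH, between -0.28 and -0.22 for GPX4 and between -0.14 and -0.0082 for SLC7A11. CTH and CBS rest on the fewest fragments, as few as 60 and 77 in a library. Of the 55 genes of the pathway lists that passed, 39 did so under every setting run, 16 lost the call under at least one, and none changed sign. Summing CBS and CBSL, an alternative chosen after seeing the data, gave a log2 difference of 0.27 in the ratio of CTH, against 0.51 over CBS alone.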
